A study of Saccharomyces cerevisiae with 18 samples.

Results

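Cryptic unstable transcripts (CUTs) are short noncoding RNA polymerase II transcripts of budding yeast that are normally destroyed almost as soon as they are made. The members described here are all features whose identifier begins with CUT but not with CUT_GIM in the deposited count tables: 435 on the plus strand and 490 on the minus strand, among 12289 features in all. CUT_GIM marks a further CUT annotation of 1315 features in the same tables, which also hold 847 stable unannotated transcripts (SUTs), 1658 Xrn1-sensitive unstable transcripts (XUTs) and 6713 features with an open reading frame (ORF) identifier.

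Nuclear CUT turnover starts at the transcription complex: Nrd1 and Nab3 bind short motifs in the nascent RNA, the helicase Sen1 ends transcription, and the TRAMP complex adds a short tail that directs the RNA to the exosome. A CUT that reaches the cytoplasm meets the decay of messenger RNAs, in which decapping by Dcp1 and Dcp2 is followed by digestion from the 5′ end by Xrn1. Nonsense-mediated decay (NMD), which depends on the helicase Upf1, directs RNAs whose translation ends early to that pathway, and Nmd4 and Ebs1 are accessory proteins bound to Upf1.

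Total RNA from haploid Saccharomyces cerevisiae, grown in rich medium at 30 °C to an optical density of 0.6, was depleted of ribosomal RNA and sequenced with strand information in 18 libraries, 3 per group. The first series held BY4741 wild type (mating type a) and a upf1 deletion in that background. The second series held its own BY4741 wild type, an nmd4 deletion and an ebs1 deletion in BY4741, and libraries labelled nmd4 ebs1 double deletion, whose labels give the BY4742 background and mating type alpha. Strain background and genotype cannot be told apart in that last group. UPF1, listed under its other name NAM7, had a mean of 251 CPM (read counts scaled to a common library total) in the first wild type and of 8.78 CPM where it was deleted. NMD4 was at 1.94 to 3.60 CPM in the nmd4 deletion but at 64.1 to 80.8 CPM where the double deletion is labelled, against 22.8 to 31.5 CPM in the wild type, so the NMD4 level goes against that label. EBS1 was at 3.09 to 4.43 CPM in the ebs1 deletion and at 4.09 to 6.04 CPM in the libraries labelled as the double deletion.

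The CUTs were 105 to 3433 bases long, with a median of 377 bases. The first 120 bases of 6 of them are shown because these CUTs carry the results: the 4 with the largest rises in the upf1 deletion, and the 2 most abundant, among CUTs free of a same-strand ORF-id feature. Sequences are from RefSeq R64, 5′ to 3′ on the transcribed strand, and capitals mark GTAA or GTAG (the DNA letters of Nrd1 motifs) and TCTT or CTTG (those of Nab3 motifs).
CUT281: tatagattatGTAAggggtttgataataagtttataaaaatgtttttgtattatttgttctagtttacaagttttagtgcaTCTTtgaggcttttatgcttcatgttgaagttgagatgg
CUT276: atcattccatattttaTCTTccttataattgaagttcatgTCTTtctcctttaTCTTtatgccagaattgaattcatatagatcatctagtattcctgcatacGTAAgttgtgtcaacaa
CUT546: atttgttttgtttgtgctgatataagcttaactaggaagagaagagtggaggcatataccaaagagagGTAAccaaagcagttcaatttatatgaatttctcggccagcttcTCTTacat
CUT493: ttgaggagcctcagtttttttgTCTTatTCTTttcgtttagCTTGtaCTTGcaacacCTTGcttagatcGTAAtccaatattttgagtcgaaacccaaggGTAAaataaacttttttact
CUT015: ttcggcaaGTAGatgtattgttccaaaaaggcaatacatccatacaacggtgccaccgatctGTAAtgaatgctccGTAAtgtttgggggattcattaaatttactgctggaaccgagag
CUT567: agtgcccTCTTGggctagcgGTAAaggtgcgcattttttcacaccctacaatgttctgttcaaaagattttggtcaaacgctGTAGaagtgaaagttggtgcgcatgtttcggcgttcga
Both motifs are short and common. GTAA or GTAG stood in the first 120 bases of 626 of the 903 CUTs that long (69.3%), and TCTT or CTTG in 726 of them (80.4%), counting the transcribed strand only, with overlapping letters allowed as in CUT567. A match is a description of the letters, not of binding.

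CUTs were rare RNAs in every group. The median CUT had a mean of 0.567 CPM over the 18 libraries, 417 CUTs stayed under 0.5 CPM, and 11 reached 10 CPM. Per kilobase, the median was 1.43 CPM for CUTs, against 1.80 for CUT_GIM features, 2.21 for XUTs, 3.68 for SUTs and 27.1 for ORF-id features. The libraries held 14243384 to 31452109 counts, of which CUTs took 0.0749% to 0.142%, and no CUT was without a read in all 18 libraries. Because a read was counted for every feature that it overlapped, a CUT shares reads with any feature on its strand.

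Most of the abundant CUTs adjoined another gene. Of the 11 CUTs at 10 CPM or more, 6 touched a same-strand ORF-id feature: CUT484 (RPP1A), CUT496 (TPI1), CUT155 (ASN2), CUT787 (RPL20A), CUT551 (ARB1) and CUT554 (RPL34A). RPP1A, RPL20A and RPL34A encode ribosomal proteins, TPI1 a glycolytic enzyme, ASN2 an asparagine synthetase and ARB1 a ribosome biogenesis ATPase. A further 3 lay within 50 bases of a small RNA gene in RefSeq, which holds for 15 CUTs in all (1.62%). CUT567 (chrV:431225-431369, minus strand) ended 4 bases before SNR52 on its own strand, and CUT677 (chrX:139951-140119, minus strand) directly abutted SNR190. SNR52 and SNR190 encode box C/D small nucleolar RNAs. CUT015 (chrII:326297-326777, plus strand) ended 14 bases from a tRNA gene on the other strand. The 2 that had neither neighbour were CUT025 and CUT792, which lie antisense to PHO5 and FKS3.

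Overlaps with other features divided the CUTs. A same-strand ORF-id feature touched 251 CUTs, 237 of them by 1 base, and the largest such overlap covered 19.8% of a CUT. Of the 5615 ORF-id features that held a whole RefSeq gene, 5388 were longer than that gene. Contact with an ORF, the end of an ORF and shares antisense to an ORF refer to these features throughout, not to the reading frame. The touching ORF lay downstream of the CUT in 163 cases and upstream in 79. Of the 674 CUTs free of such contact, 157 shared bases with a XUT or SUT but no CUT_GIM feature, 95 with both kinds, 216 with a CUT_GIM feature but no XUT or SUT, 39 with another feature only, and 167 with no same-strand feature. On the opposite strand, 645 CUTs overlapped an ORF-id feature.

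Summed over all CUTs, the level in the wild type of the upf1 series was 959, 814 and 892 CPM. It was 1072, 942 and 1075 CPM in the upf1 deletion, so the groups overlapped. Kinds of CUT differed in direction. The 157 CUTs that shared bases with a XUT or SUT alone summed to 166, 150 and 168 CPM in the wild type and 333, 302 and 345 CPM in the upf1 deletion, with no overlap and a ratio of means of 2.02. The 216 CUTs that shared bases with a CUT_GIM feature alone summed to 199, 149 and 171 CPM in the wild type and 128, 98.5 and 118 CPM in the upf1 deletion, with no overlap and a ratio of 0.663. The 167 CUTs with no same-strand feature summed to 87.3 ± 6.6 CPM in the wild type and 90.5 ± 4.6 CPM in the upf1 deletion (SD, n = 3). The 251 CUTs in contact with an ORF summed to 342 ± 27 and 346 ± 20 CPM (SD, n = 3).

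These sums depend on the scaling. As an unscaled share of all counts, all CUTs together went from 0.0807% ± 0.0058 to 0.113% ± 0.0084 (SD, n = 3), a ratio of 1.40. On that scale the CUTs with XUT or SUT overlap alone had a ratio of 2.45, and those with CUT_GIM overlap alone had a ratio of 0.803, with 1 upf1 library above the lowest wild-type library. Without the 6 most abundant ORF-free CUTs, the scaled sums were 143 ± 9.4 and 251 ± 15 CPM for XUT or SUT overlap, and 93.1 ± 8.7 and 71.2 ± 5.5 CPM for CUT_GIM overlap (SD, n = 3).

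In the second series the CUTs with XUT or SUT overlap alone summed to 222 ± 14 CPM in the wild type. They summed to 243 ± 23 with nmd4 deleted, 236 ± 13 with ebs1 deleted and 239 ± 6.4 in the labelled double deletion (SD, n = 3). The CUTs with CUT_GIM overlap alone summed to 167 ± 32, 171 ± 16, 148 ± 16 and 149 ± 10 CPM in the same order, and the groups overlapped for both kinds. The CUTs with XUT or SUT overlap were already higher in the second wild type than in the first, whose 3 libraries lay between 150 and 168 CPM. The 2 wild types differ in series and experimenter, and comparisons stay within a series.

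**Figure D1:**
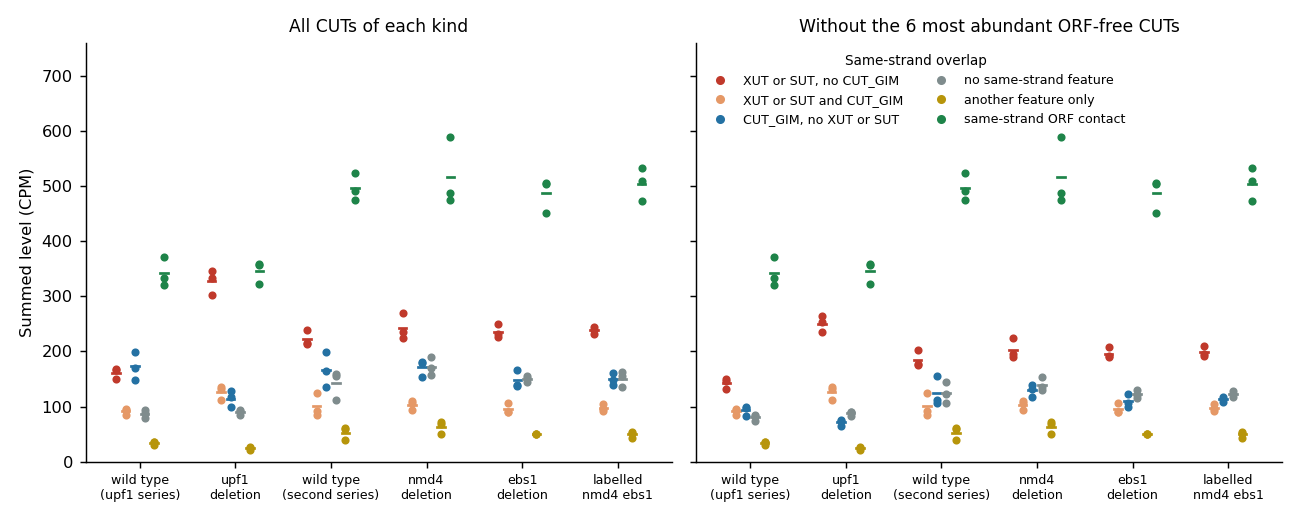
Summed level in CPM (vertical axis, linear) of the 6 kinds of CUT in each of the 18 libraries, by group; points are libraries and bars are group means, with every CUT counted in the left panel and without the 6 most abundant ORF-free CUTs in the right panel. The CUTs with XUT or SUT overlap alone sit between 302 and 345 CPM in the upf1 deletion, above the 150 to 168 CPM of its wild type, while those with CUT_GIM overlap alone sit below their wild type.

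Deletion of UPF1 raised a minority of CUTs and lowered a smaller one. Of 501 CUTs with enough reads to test, 152 were higher (30.3%) and 69 lower (13.8%) at an adjusted p under 0.05, by edgeR's quasi-likelihood test with Benjamini-Hochberg adjustment over all 9700 features tested. Over all features, 37% were higher and 31.8% lower. Both shares were below those of all features, among which XUTs and SUTs rose in 72.6% and 73.3%. At a change of at least 2-fold, 104 CUTs were higher (20.8%) and 25 lower (4.99%), against 20% and 1.67% of all features. The median CUT changed by 0.07 on the log2 scale, against 0.02 for all features, 1.07 for XUTs, 1.08 for SUTs and -0.13 for ORF-id features. CUT_GIM features had a median of -0.14, with 155 of 690 higher (22.5%) and 208 lower (30.1%). With scaling by ORF-id features alone, which moved the median of all features to 0.15, the counts were 164 higher and 47 lower. Under that scaling these are 32.7% and 9.38% of the CUTs tested, against 42.5% and 21.4% of all features.

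The remaining 424 CUTs had too few reads to be tested, and 95 of the CUTs tested reached 10 reads in every upf1 library but not in every wild-type library. CUTs of the latter kind could pass the filter through the mutant alone, and 56 of them were called higher. Another choice of CUTs does not use the upf1 libraries. Of the 664 CUTs that passed the filter in the second series, 141 were higher (21.2%) and 77 lower (11.6%) in the unfiltered upf1 fit, with a median change of -0.00 on the log2 scale, against 34.3% and 29.7% of all features chosen in that way.

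The share called differed most between kinds of same-strand overlap. Among the CUTs free of ORF contact, 70 of the 123 tested with XUT or SUT overlap alone were higher (56.9%) and 5 were lower, and their median log2 change was 0.65. Both kinds of overlap were present in 75, of which 15 rose and 11 fell, at a median of 0.06. Of the 80 with CUT_GIM overlap alone, 1 was higher and 22 were lower (27.5%), with a median of -0.42. The 68 CUTs with no same-strand feature stood between these, with 19 higher and 11 lower and a median of -0.01. Under scaling by ORF-id features the CUTs with CUT_GIM overlap alone had 1 higher and 16 lower and a median of -0.29, so their direction was kept. Chosen by the second series, 64 of 132 CUTs with XUT or SUT overlap alone were higher (48.5%), and none of 127 with CUT_GIM overlap alone was higher while 25 were lower (19.7%). The shared part was large, with a median of 67.6% of the CUT under a XUT or SUT over all 282 such CUTs, so many reads of these CUTs were also counted for the XUT or SUT.

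**Figure D2:**
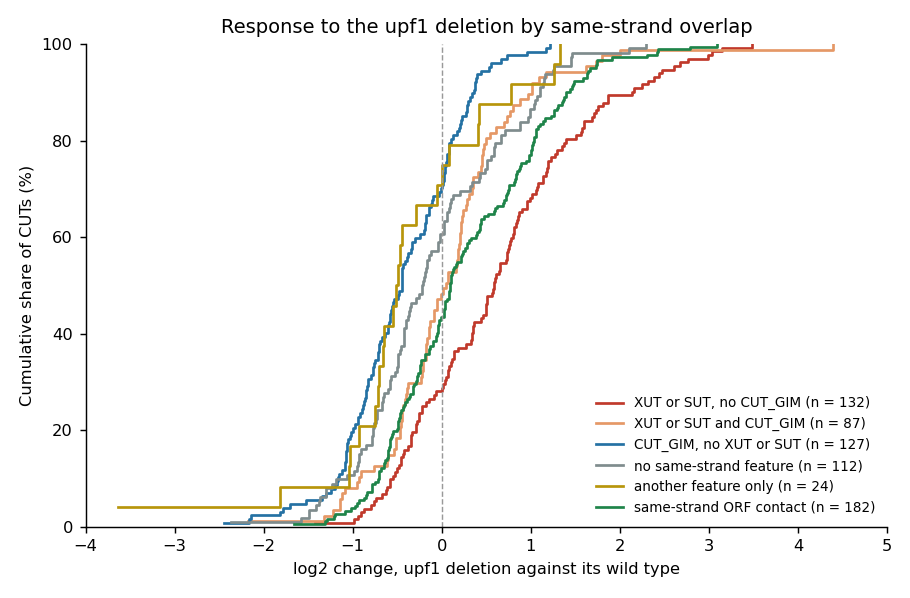
Cumulative share of CUTs (vertical axis, percent) by log2 change in the upf1 deletion against its wild type (horizontal axis), for the 664 CUTs chosen by their counts in the second series and split by same-strand overlap. The curve of the 132 CUTs with XUT or SUT overlap alone lies to the right, with a median of 0.58, and that of the 127 with CUT_GIM overlap alone to the left, with a median of -0.45.

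Length went with the response only in part. Of the 63 CUTs of at least 1000 bases that were tested, 34 were higher (54.0%), with a median log2 change of 0.58. The counts were 49 of 176 from 500 to under 1000 bases, 40 of 173 from 250 to under 500 bases and 29 of 89 for shorter CUTs. Of the 240 CUTs under 250 bases, only these 89 passed the filter of the upf1 series. From longest to shortest, the second-series choice gave 33 of 66 (50%), 47 of 209 (22.5%), 38 of 247 (15.4%) and 23 of 142 (16.2%). Within the CUTs of at least 1000 bases, those with XUT or SUT overlap had 29 of 44 higher, while those without had 5 of 19. Among the ORF-free CUTs with CUT_GIM overlap alone that the second series chose, none was higher in either length range, with 73 under 500 bases and 54 longer. Across the 501 CUTs the rank correlation of length with the log2 change was 0.11, as a description of features that share the same 6 libraries.

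The share that fell went up with abundance, while the order of the share that rose depended on how the CUTs were chosen. By mean level over all libraries, 18 of 52 CUTs under 0.5 CPM were higher and 3 lower (5.77%). At 0.5 to 2 CPM, 87 of 347 were higher and 45 lower (13.0%), and at 2 to 10 CPM, 44 of 91 were higher and 14 lower (15.4%). At 10 CPM or more 3 of 11 were higher and 7 lower (63.6%). When abundance was taken from the second wild type, which shares no library with the upf1 comparison, 27 of 71 were higher under 0.5 CPM, 91 of 327 at 0.5 to 2 CPM, 31 of 90 at 2 to 10 CPM and 3 of 13 above. In the same order, the shares lower were 8.45%, 11.9%, 17.8% and 61.5%. These bins still held only CUTs that passed the filter in the upf1 series, 71 of 402 under 0.5 CPM. For CUTs chosen by the second series, 21 of 141 (14.9%), 86 of 415 (20.7%), 31 of 95 (32.6%) and 3 of 13 were higher. Their shares lower, in the same order, were 4.26%, 11.3%, 16.8% and 61.5%. The median log2 changes of these bins were -0.02, 0.02, 0.01 and -0.75, so only the most abundant bin had a median away from 0. The part of read depth in the shares called was not tested. The rank correlation of abundance with the log2 change was 0.04 across the 501 CUTs.

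Shares with and without ORF contact were alike over all CUTs but not among those free of XUT or SUT overlap. Of all 142 tested CUTs with a same-strand ORF contact, 45 were higher (31.7%) and 15 lower, against 107 of 359 higher (29.8%) and 54 lower without one. Among CUTs with no XUT or SUT overlap, 35 of 118 in contact with an ORF were higher (29.7%) and 11 lower (9.32%), against 22 of 161 higher (13.7%) and 38 lower (23.6%) free of contact. Of these 161, 80 shared bases with a CUT_GIM feature, with 1 higher and 22 lower. The 68 with no same-strand feature had 19 higher (27.9%) and 11 lower (16.2%), while the 13 others had 2 and 5. With XUT or SUT overlap, 10 of 24 in contact were higher (41.7%) and 4 lower (16.7%), against 85 of 198 higher (42.9%) and 16 lower (8.08%). These differences were not tested. With the ORF downstream of the CUT, 29 of 83 were higher, and with the ORF upstream, 14 of 53. Of the 45 that were higher, the touching ORF was itself higher in 10 and lower in 20, near the 26.0% and 44.1% of all ORF-id features. Among the ORF-free CUTs, 18 of the 35 that began within 200 bases of the end of an upstream ORF were higher (51.4%), against 89 of 324 others (27.5%). An ORF on the opposite strand was present for 101 of the 152 CUTs that were higher and 51 of the 69 that were lower.

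Sequence composition differed modestly. The Nab3 motifs TCTT and CTTG occurred at a median of 1.61 per 100 bases in the CUTs that were higher, 1.96 in those that were lower and 1.98 in those with no call. For the Nrd1 motifs GTAA and GTAG the medians were 0.904, 0.858 and 0.852 per 100 bases. GC content was 36.8%, 38.9% and 37.4%, and the longest reading frame from an ATG had a median of 39, 37 and 35 codons. The rank correlation with the log2 change was -0.22 for the Nab3 density, -0.23 for GC content and -0.00 for the Nrd1 density across the 501 CUTs, as descriptions over features of the same libraries.

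The largest rise was that of CUT281 (chrXIII:23944-26104, plus strand), which covers the antisense strand of PHO84, the high-affinity phosphate transporter gene. Its level was 1.16, 1.51 and 0.923 CPM in the wild type and 27.3, 18.4 and 29.0 CPM in the upf1 deletion. Every upf1 library lay above every wild-type library, and the log2 change was 4.39 ± 0.22 (SE; edgeR adjusted p = 2.22e-08). PHO84 itself was lower, from a mean of 714 to 121 CPM, with a log2 change of -2.56 ± 0.13 (SE). CUT281 was at 1.80, 3.26 and 4.20 CPM in the second wild type and between 1.52 and 5.21 CPM in the 9 mutant libraries of that series, so those groups overlapped. A XUT of 603 bases inside CUT281 had a log2 change of 5.18.

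PHO5, which encodes the repressible acid phosphatase, is another gene of phosphate metabolism. CUT025 (chrII:429669-431781, plus strand), with 62.7% of its length antisense to PHO5, was at 8.88, 7.99 and 7.97 CPM in the wild type and 48.6, 40.6 and 48.9 CPM in the upf1 deletion. The groups did not overlap, and the log2 change was 2.47 ± 0.09 (SE; edgeR adjusted p = 2.66e-09). PHO5 fell from a mean of 99.6 to 32.8 CPM, with a log2 change of -1.60 ± 0.10 (SE). CUT561 (chrV:302647-303359, minus strand), antisense to VTC1 of the vacuolar polyphosphate synthesis complex, was at 5.37, 3.97 and 5.04 CPM in the wild type and 14.5, 8.55 and 10.8 CPM in the upf1 deletion, a log2 change of 1.22 ± 0.19 (SE; edgeR adjusted p = 0.000179). VTC1 had a log2 change of -1.50.

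Other leading rises lay antisense to genes of varied function. CUT276 (chrXII:911327-912471, plus strand), antisense to VPS33, a gene of vacuolar membrane fusion, went from 0.413, 0.603 and 0.294 CPM to 5.36, 4.59 and 4.52 CPM, a log2 change of 3.48 ± 0.22 (SE; edgeR adjusted p = 1.44e-07), while VPS33 fell by 0.38. CUT445 (chrII:278428-280876, minus strand), antisense to the galactokinase gene GAL1, went from 1.12, 0.904 and 1.34 CPM to 6.96, 8.09 and 8.02 CPM, a log2 change of 2.76 ± 0.16 (SE; edgeR adjusted p = 7.33e-08). GAL1, at a mean of 2.58 CPM in the wild type, was itself higher by 1.20. CUT480, antisense to the ARF2 gene for a vesicle transport GTPase, changed by 2.67, CUT493, antisense in part to the drug efflux pump gene SNQ2, by 3.03, and CUT257, antisense to APC2 of the anaphase-promoting complex, by 2.43. CUT792 (chrXIII:881974-885406, minus strand), the longest CUT at 3433 bases and antisense to the glucan synthase homologue gene FKS3, went from 5.04, 5.78 and 4.95 CPM to 17.6, 18.6 and 20.8 CPM, a log2 change of 1.86 ± 0.11 (SE; edgeR adjusted p = 6.78e-08).

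CUT546 (chrV:62821-63724, minus strand), which overlaps the seripauperin gene PAU2 by 5.20% of its length on the other strand, went from 1.74, 1.36 and 1.38 CPM to 12.2, 13.9 and 13.5 CPM, a log2 change of 3.14 ± 0.14 (SE; edgeR adjusted p = 6.32e-09). PAU genes form a family of near-identical copies, and reads of several alignments were left out, so reads there may be lost. The remaining leading rises were CUT426 at 2.98, CUT185 at 2.82, CUT425 at 2.66 and CUT256 at 2.29 on the log2 scale. CUT185 and CUT425 are 121 and 105 bases long and lie wholly within a XUT. Both had few wild-type reads, 1 to 7 and 2 to 5 per library, and both were tested only because of their reads in the upf1 libraries, so their folds are imprecise. CUT493 and CUT256 also had low wild-type reads, 3 to 6 and 4 to 8 per library. Wild-type reads per library were 7 to 12 for CUT276, 7 to 11 for CUT257 and 5 to 15 for CUT426. None of CUT493, CUT256, CUT276, CUT257 and CUT426 reached 10 reads in every wild-type library. They passed the filter of the upf1 series only with upf1 libraries, but also passed that of the second series. CUT256 was the 1 CUT of these 12 with no same-strand XUT, SUT or CUT_GIM feature, and CUT493 shared only 1 base with a SUT. In all, 86 ORF-free CUTs met the criteria from which the 12 largest rises were taken, which asked for a call, for 1 CPM or more in whichever group was higher, and for libraries that did not overlap.

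Among CUTs in contact with an ORF, 30 met these criteria for a rise, and the values of CUT and ORF often differed. CUT554 (chrV:268230-269295, minus strand), in contact with RPL34A, was at 4.92, 3.92 and 4.15 CPM in the wild type and 22.4, 24.8 and 22.3 CPM in the upf1 deletion, a log2 change of 2.41 ± 0.11 (SE; edgeR adjusted p = 8.10e-09), while RPL34A fell by 0.56. CUT850 next to SME1, a splicing factor gene, changed by 2.78 with SME1 at -0.12, CUT097 next to the exchanger gene NHX1 by 2.43 with NHX1 at 0.10, and CUT355 next to the replication gene PSF3 by 1.90 with PSF3 at 0.00. In contrast, CUT046 and CUT459 changed by 2.30 and 1.74 while the ORFs that they touch, HTL1 and PEX34, changed by 2.36 and 1.83. CUT850 and CUT097 had 5 to 10 and 7 to 15 wild-type reads per library, and passed the filter of the upf1 series only with upf1 libraries.

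**Figure D3:**
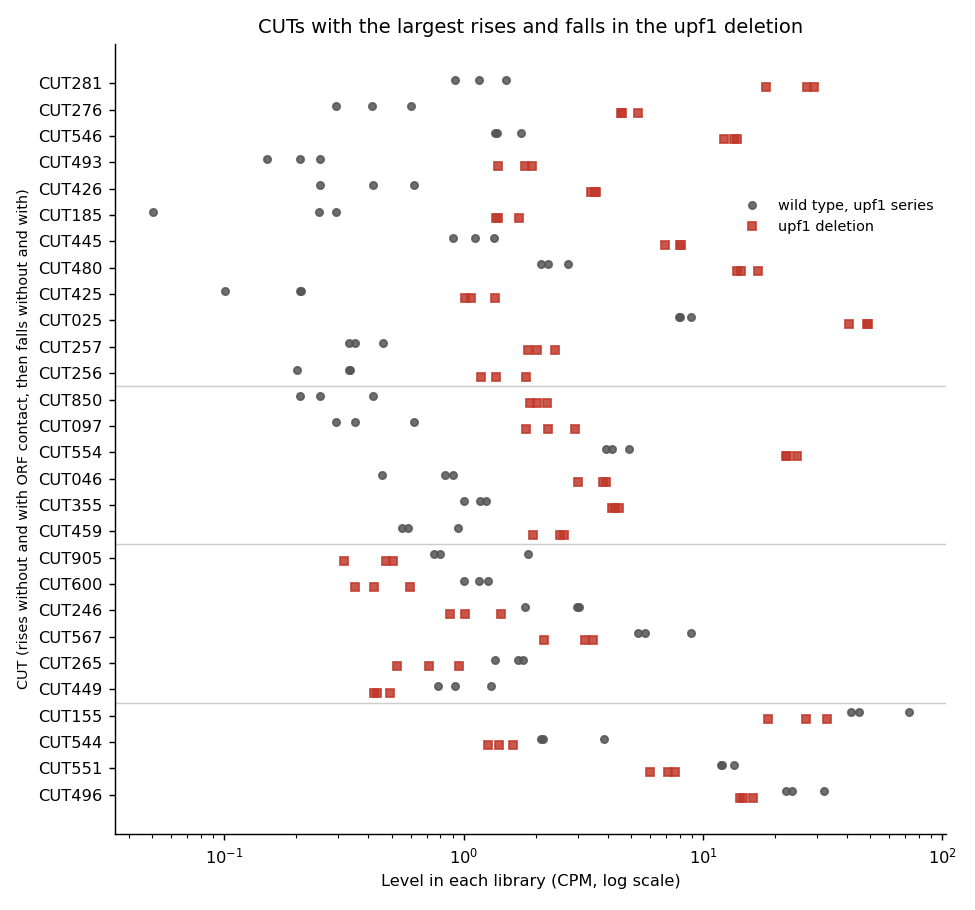
Level of 28 CUTs (rows) in each library of the upf1 series in CPM (horizontal axis, log scale), with grey circles for the 3 wild-type libraries and red squares for the 3 upf1 libraries; from top to bottom are the 12 largest rises without and 6 with ORF contact, then the 6 largest falls without and 4 with ORF contact. The 2 groups do not overlap in any row, which the choice of these CUTs required, and CUT281 spans the widest distance, from about 1 CPM to between 18.4 and 29.0 CPM.

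The falls were smaller than the rises. The largest among ORF-free CUTs that met the same criteria were CUT905 at -1.42 ± 0.40, CUT600 at -1.33 ± 0.27, CUT246 at -1.25 ± 0.25, CUT567 at -1.19 ± 0.22, CUT265 at -1.15 ± 0.25 and CUT449 at -1.13 ± 0.28 (log2 change and SE; edgeR adjusted p from 0.000675 to 0.00859). CUT905 was at 1.86, 0.754 and 0.797 CPM in the wild type, so the size of its fall leans on 1 library. It was at 0.506, 0.315 and 0.476 CPM in the upf1 deletion. CUT246 (chrXII:97826-99154, plus strand), antisense to the nuclear pore gene POM33, was at 2.97, 1.81 and 3.02 CPM in the wild type and 1.01, 0.876 and 1.43 CPM in the upf1 deletion, while POM33 changed by 0.00. CUTs that were called but did not meet the criteria had log2 changes as large, among them CUT280 at -1.82, CUT467 at -1.39 and CUT461 at -1.24, named after their values were seen (edgeR adjusted p from 0.000478 to 0.00516). CUT600, CUT246, CUT265 and CUT449 share bases with a CUT_GIM feature. In all, 29 ORF-free CUTs met the criteria for a fall.

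The 3 abundant CUTs beside small RNA genes had values below their wild type, and 2 of them passed the test. CUT015 was at 93.8, 58.6 and 65.2 CPM in the wild type and 46.3, 29.1 and 38.1 CPM in the upf1 deletion, a log2 change of -0.94 ± 0.18 (SE; edgeR adjusted p = 0.000741). CUT567 was at 8.92, 5.73 and 5.37 CPM and then 3.46, 2.17 and 3.21 CPM. CUT677 was at 8.88, 6.73 and 6.21 CPM and then 6.28, 4.49 and 5.99 CPM, groups that overlapped, and its log2 change of -0.39 ± 0.17 did not pass (SE; edgeR adjusted p = 0.0581). CUT567 also varied between replicates of 1 genotype, at 32.8, 6.89 and 13.8 CPM in the second wild type. In contact with ORFs, CUT155 (ASN2) changed by -1.03, CUT544 (RPL12A) by -0.94, CUT551 (ARB1) by -0.85 and CUT496 (TPI1) by -0.79. The log2 changes of their ORFs were -0.17, -0.37, -0.43 and -0.61, of which that of ASN2 did not pass (edgeR adjusted p = 0.0558).

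Whether a CUT and the ORF on its other strand moved together was compared over 281 ORF-free CUTs with both tested. Of the 78 CUTs that were higher, the opposite ORF was higher in 32 and lower in 20, with a median log2 change of 0.13. Of the 44 that were lower, it was higher in 17 and lower in 12, and of the 159 with no call, higher in 55 and lower in 58. Over all ORF-id features tested, 26.0% were higher and 44.1% lower. The rank correlation between the 2 log2 changes was -0.01. Falls opposite a rising CUT, as at PHO84, PHO5 and VTC1, made up 20 of 78 cases (25.6%).

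**Figure D4:**
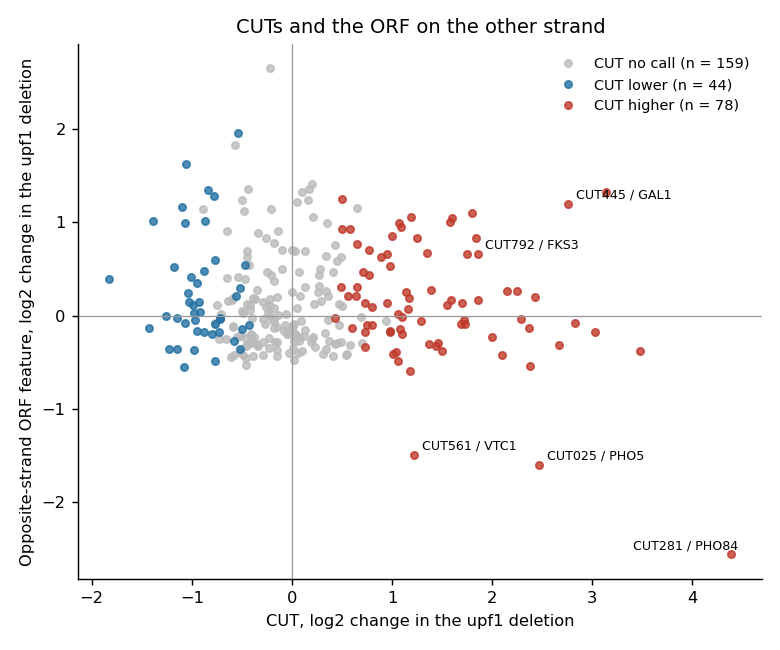
Log2 change in the upf1 deletion of 281 ORF-free CUTs (horizontal axis) and of the ORF-id feature on the opposite strand (vertical axis), with red for CUTs called higher, blue for lower and grey for no call. PHO84, PHO5 and VTC1 stand alone in the lower right, at -2.56, -1.60 and -1.50, while the other points spread about the horizontal line.

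Genes for the CUT decay machinery were mostly lower. Of 25 such genes tested in the upf1 deletion, 19 were lower and 1 was higher, where 44.1% of ORF-id features were lower and 26.0% higher, at a median log2 change of -0.29 against -0.13 for all ORF-id features. With scaling by ORF-id features alone, 12 were lower and 1 was higher, with a median of -0.16 against -0.00 for all ORF-id features. Of all features, XUTs and SUTs included, 21.4% were lower and 42.5% higher under that scaling. The shares of ORF-id features alone were not counted there, so 21.4% is not a match for the 44.1%. The largest falls were those of DCP1, a subunit of the decapping enzyme, at -0.73 ± 0.06, PAP2, the poly(A) polymerase of TRAMP, at -0.57 ± 0.06, and MTR4, the TRAMP helicase, at -0.51 ± 0.07 (log2 change and SE; edgeR adjusted p from 2.40e-06 to 5.23e-05). PCF11, a termination factor gene, was the 1 that was higher, at 0.40 ± 0.06 (SE; edgeR adjusted p = 0.000118). Their part in the CUT levels was not tested.

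In the nmd4 deletion, 0 of 664 tested CUTs were higher and 0 lower by edgeR's quasi-likelihood test, against 0.0394% and 0.00985% of all features, and 47 CUTs had an unadjusted p under 0.05. DESeq2 also called 0. In the ebs1 deletion 0 were higher and 0 lower by edgeR, against 0.355% and 0.00985% of all features, with 48 at an unadjusted p under 0.05 and 0 called by DESeq2. With the replicate number as a block, 3 of the 664 CUTs were higher and 3 lower in the ebs1 deletion, against 3.222% and 2.404% of all features. The 142 CUTs that rose in the upf1 deletion and were tested in both series had median log2 changes of 0.14 for nmd4, 0.19 for ebs1 and 0.22 for the labelled double deletion. Over all 664 CUTs tested in the second series these medians were 0.10, -0.02 and 0.01. The 66 that fell had medians of 0.02, -0.23 and -0.20. Across 476 CUTs, the rank correlation between the log2 changes in the upf1 and ebs1 deletions, which have separate wild types, was 0.42, as a description across features.

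Where the labels give the nmd4 ebs1 double deletion, 5 CUTs were higher and 4 lower by edgeR, against 2.01% and 0.384% of all 10148 features tested. With the replicate block, 10 CUTs were higher and 8 lower, against 5.17% and 3.63% of all features. The 5 higher became 1 without the second wild-type replicate 2 or the labelled double deletion replicate 2, 2 without the labelled double deletion replicate 1 or 3, and 3 without the second wild-type replicate 3. CUT460 (chrIII:28613-29109, minus strand), antisense to the pheromone response gene KAR4, had 1.57, 1.31 and 1.60 CPM in the wild type and 0 reads in all 3 labelled libraries, at least 37.6-fold lower when set against 3 reads over the group. Its level was between 1.01 and 1.62 CPM in the nmd4 and ebs1 deletions and between 0.904 and 1.12 CPM in the upf1 series. CUT461, next to it on the same strand (chrIII:29909-30405), had 1.18, 2.32 and 1.41 CPM in the wild type and 1 read in all in the labelled libraries. CUT534 (chrIV:1383905-1384769, minus strand), antisense to the transcription factor gene TFB3, had 1.35, 0.653 and 0.725 CPM and 3 reads in all in the labelled libraries.

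CUT597 (chrVII:345292-345724, minus strand) went the other way, with 0.168, 0.508 and 0.535 CPM in the wild type and 1.97, 2.03 and 2.25 CPM in the labelled libraries, a log2 change of 2.33 ± 0.35 (SE; edgeR adjusted p = 0.00412). CUT303, antisense to the translation initiation gene TIF34, was lower at -1.85 ± 0.30 (SE; edgeR adjusted p = 0.00785). Its wild type stood high, at 1.07, 0.653 and 1.11 CPM against 0.235 to 0.662 CPM in the 9 mutant libraries of that series. The log2 changes of CUT303 were -1.16 in the nmd4 deletion and -0.88 in the ebs1 deletion, and neither passed. CUT562 was higher at 1.51 ± 0.30 (SE; edgeR adjusted p = 0.0235), but the wild type stood low, at 0.281, 0.290 and 0.458 CPM against 0.697 to 1.29 CPM in the 9 mutant libraries of that series. Its adjusted p was between 0.0679 and 0.0879 without the second wild-type replicate 1 or 2 or the labelled double deletion replicate 1 or 2. In these libraries genotype and mating type cannot be told apart.

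**Figure D5:**
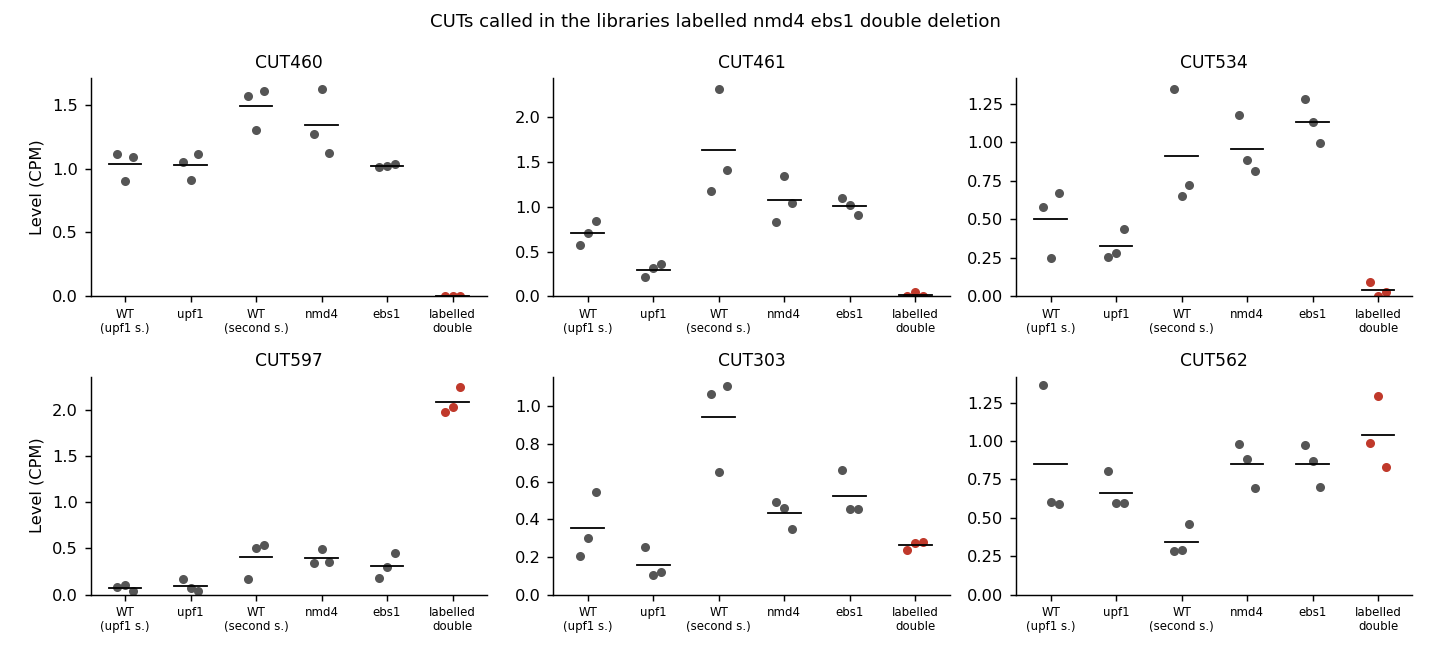
Level in CPM (vertical axes, linear, from 0) of 6 CUTs in the 18 libraries by group (WT, wild type; s., series; upf1, nmd4 and ebs1, deletions); points are libraries, bars are group means, and red marks the libraries labelled nmd4 ebs1 double deletion. CUT460, CUT461 and CUT534 are at or near 0 there and present in the other 5 groups, and CUT597 is at 1.97 to 2.25 CPM there and at most 0.535 CPM elsewhere.

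The upf1 effect was then set against each of the other effects in a fit of all 18 libraries, each effect taken within its own series (702 CUTs tested). It exceeded the nmd4 effect for 70 CUTs and fell below it for 26, by edgeR at an adjusted p under 0.05, against 20.8% and 5.42% of all features. For the ebs1 effect the counts were 61 and 8, against 16.9% and 2.97%, and for the labelled double deletion 54 and 9, against 16.3% and 2.54%. These 3 comparisons share the upf1 series and the second wild type, so they are not independent. By smallest p, CUT025, CUT480, CUT445 and CUT792 led for nmd4, with differences from the nmd4 effect of 2.41 ± 0.20, 2.76 ± 0.27, 2.84 ± 0.31 and 1.65 ± 0.17 (log2 and SE; edgeR adjusted p from 1.4e-07 to 2.83e-06). Larger differences from the nmd4 effect, with larger errors, were those of CUT281 at 4.44 ± 0.61, CUT185 at 3.10 ± 0.66, CUT276 at 2.93 ± 0.40 and CUT426 at 2.86 ± 0.55 (SE). For the labelled double deletion the smallest p was that of CUT460, which had no read there. CUT792 was at 17.6 to 20.8 CPM in the upf1 deletion, but at 11.5 to 14.7 CPM in the second wild type against 4.95 to 5.78 CPM in the first.

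The counts below were sensitive to scaling and to single libraries. With DESeq2 size factors, which moved the median difference over all features from 0.01 to -0.15 for nmd4, the counts above and below were 57 and 52 for nmd4, 51 and 16 for ebs1, and 46 and 22 for the labelled double deletion. Of all features, 17.8% and 17.5%, 14.5% and 11.1%, and 14.3% and 9.36% were called in the same order. With the replicate block the CUT counts were 92 and 49, 81 and 16, and 68 and 24. Of all features, the block called 24.9% and 16.3%, 21.3% and 12.3%, and 20.8% and 11.7%. For nmd4 the 26 below became 13 without replicate 1 and 17 without replicate 2 of the upf1-series wild type, 12 without upf1 replicate 2 or 3, 41 without nmd4 replicate 1 and 13 without nmd4 replicate 2. For ebs1 the 8 below became 5 without upf1 replicate 2 or 3. For the labelled double deletion the 9 below became 3 without upf1 replicate 2, 14 without replicate 1 and 16 without replicate 3 of the second wild type, 15 without nmd4 replicate 1, 14 without ebs1 replicate 1, and 14 and 5 without its own replicates 1 and 3.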

How the data were processed

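Read counts per feature, 1 table per series, were deposited by the authors; per the file headers they were made with featureCounts (Subread 1.5.0-p3) on the sense strand, with a read given to every feature it overlaps and reads of several alignments left out. The submitters' processing notes name STAR 2.4.2a and the R64 build. The deposited counts are raw, so short or overlapping features share reads, and fewer RNA molecules and less RNA per cell cannot be told apart.

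Features were kept by filterByExpr, scaled by TMM within each series and tested with edgeR 4.0.16 (R 4.3.3) by the quasi-likelihood F test. Adjustment was by Benjamini-Hochberg over all features tested, called at 0.05. The upf1 series entered with 6 libraries, the second on 12, and differences of effects on 18. Standard errors are the absolute log2 change over the square root of F. The fit recovered known changes in simulated counts. DESeq2 1.42.0, other scalings, no filter, the replicate block and leaving out each library were alternatives. The choice of CUTs by second-series counts was added after the data were seen.

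Overlap means at least 1 shared base. All 12289 features lay within the R64 chromosomes, and 6029 of 6713 ORF-id features matched RefSeq. Of those matched, 5615 held the whole RefSeq gene, and 5388 of these were longer than it. The CUTs named were the 12 largest rises without and 6 with ORF contact and the 6 and 4 largest falls (adjusted p under 0.05, at least 1 CPM in the higher group, no overlap of libraries), the 6 most abundant ORF-free CUTs, up to 6 with the smallest p in the other comparisons and up to 4 per difference. CUT484 and CUT787 were named after their values were seen. The members and lists were chosen with earlier results of these data known.

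The labels state which samples were handled in parallel, so equal replicate numbers pair them. Deviations of same-numbered libraries correlated at 0.04 to 0.23 in the upf1 series and at -0.01 to 0.65 in the second. The median in the second series was 0.47 for same-numbered libraries and -0.23 for the others. The main tests leave this pairing out, and only the replicate block uses it. The labels do not say that replicates are separate cultures, so p-values measure the spread between these samples. Replicates differed by more than counting noise (chi-square per degree of freedom of at least 12.4). Depths of 14243384 to 31452109 counts gave a median of 7 to 20 reads per CUT and library, which left 424 CUTs untested in the upf1 series.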

Additional observations from a re-analysis of the deposited data

How the results depend on the processing

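Counts of CUTs called in the upf1 deletion stayed within 1.5 times their value for higher calls (104 at 2-fold or more to 164 with ORF-id scaling), and leaving out 1 library gave 136 to 151 higher and 56 to 78 lower. Of all features, 20% were higher at 2-fold or more and 42.5% with ORF-id scaling. Lower calls numbered 44 with DESeq2 and 25 at 2-fold or more, against 32.3% and 1.67% of all features. Among ORF-free CUTs, leaving out 1 library gave 92 to 106 higher and 46 to 62 lower, DESeq2 gave 34 lower, and the CUTs with no same-strand feature alone held 19 and 11. No CUT overlapped an ORF by 50% of its length, so that split leaves 1 class of CUTs (152 higher, 69 lower). CUTs chosen by the second series, an alternative added after the data were seen, gave 141 higher and 77 lower.

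Leaving out 1 library gave 0 higher and 0 to 1 lower for ebs1, and 1 to 5 higher and 4 to 5 lower for the labelled double deletion. For the differences of the upf1 effect from the others it gave 49 to 74 above and 12 to 41 below for nmd4, 41 to 63 and 5 to 12 for ebs1, and 37 to 59 and 3 to 16 for the labelled double deletion. The counts below were 52 (DESeq2 size factors), 44 (no filter) and 49 (replicate block) for nmd4; 16, 13 and 16, with 15 by DESeq2, for ebs1; and 22, 19 and 24, with 17 by DESeq2, for the labelled double deletion. The replicate block gave 3 higher and 3 lower for ebs1, 10 and 8 for the labelled double deletion, and 160 and 74 for upf1. Of all features, it called 3.222% and 2.404%, 5.173% and 3.626%, and 38.38% and 34.41% in the same order. With DESeq2 size factors, no filter and the replicate block, 17.5%, 11.9% and 16.3% of all features were below for nmd4. These shares were 11.1%, 6.23% and 12.3% for ebs1, and 9.36%, 5.95% and 11.7% for the labelled double deletion. By DESeq2 they were 13.2% for ebs1 and 11.6% for the labelled double deletion. The cause of these shifts was not tested.

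Of 730 values of named CUTs under the alternatives, 721 kept their call, 4 lost it (CUT562 without single libraries), 5 gained it (CUT677) and 0 reversed. Depth limits what the tables can show for CUTs: 424 had too few reads to be tested in the upf1 series and 261 in the second, and their levels were not called.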
